A study of Homo sapiens with 10 samples.

Results

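The genes described here encode enzymes that handle reactive aldehydes and carbonyls, foreign compounds and lipid-soluble hormones, and enzymes that conjugate such compounds to glutathione, glucuronic acid, sugars or sulfate. Members were taken by symbol: aldehyde dehydrogenases (ALDH), aldo-keto reductases (AKR), carbonyl reductases (CBR), cytochrome P450 enzymes (CYP), glutathione S-transferases (GST), microsomal glutathione transferases (MGST), UDP-glycosyltransferases (UGT) and cytosolic sulfotransferases (SULT). ALDH1L2, ALDH18A1 and CYP51A1 were left out by the rule. Only rows assigned to 1 gene symbol counted, and where a gene had several rows the one with the highest mean stood for it. This gave 81 genes of 14232 in the table, namely 35 CYP, 15 ALDH, 10 GST, 7 SULT, 5 AKR, 4 UGT, 3 MGST and 2 CBR genes.

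RNA came from SH-SY5Y, an established human neuroblastoma line used as a model of catecholaminergic neurons. The groups were untreated cells (ctrl, 5 arrays, numbered 7, 11, 13, 17 and 19 in the titles) and cells exposed to paraquat (5 arrays, numbered 8, 12, 14, 18 and 20). All 10 arrays carried total RNA of the same line, so each group rests on 1 tumour-derived line. The dose and the duration are not given in any source used here. Nothing in the labels tells if replicate arrays stand for separate cultures, so the p-values rest on an array-to-array spread that could be technical.

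Paraquat is a herbicide that accepts electrons from flavin enzymes and passes them to oxygen, which yields superoxide. Oxidised membrane lipids break down to reactive aldehydes, which ALDH enzymes oxidise, AKR and CBR enzymes reduce, and GST enzymes couple to glutathione. P450 enzymes insert oxygen into drugs, steroids, retinoids, vitamin D and fatty acids, and UGT and SULT enzymes attach a sugar or a sulfate that makes the product water-soluble. Many members are also classical targets of NRF2, the transcription factor released from KEAP1 by electrophiles, or of AHR, the receptor for planar aromatic compounds. Most P450, UGT and SULT genes are known mainly from liver, gut and endocrine tissue.

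Values are log2 expression values of bulk RNA, in which fewer cells of a type and less RNA per cell cannot be told apart, and "called" means an adjusted p under 0.05 in limma over all 22011 rows of the table. Control 11 stood apart from the other controls in several members: it was an outlier by Dixon's test in 5 of the 35 named members checked. Calls that turn on it are pointed out where they are given. Array medians lay between 6.78 and 6.93. Of the 5 measured markers of sympathetic neuroblasts, PHOX2A, GATA3, ISL1, TH and CHGA, 4 fell, and their mean level was 8.82 to 9.20 in controls and 7.89 to 8.20 after paraquat. Hepatocyte markers had mean levels of 3.46 to 3.64 in controls and 3.45 to 3.64 after paraquat, and 6 of 7, ALB among them, lay among the dimmest rows, while APOA1 measured 6.24 and 6.28. The 5 measured leukocyte markers had mean levels of 4.05 to 4.27 in controls and 4.49 to 4.61 after paraquat: CD68 and CD14 rose, and the defining marker PTPRC was among the dimmest rows in both groups. Glial markers (4 measured) were at 3.97 to 4.41 and 3.90 to 4.51. The part of these shifts in the results below was not tested.

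After paraquat, 17 of the 81 genes fell and 5 rose. The genes that rose were CYP19A1, CYP27B1, ALDH1A2, ALDH3A1 and CYP27A1, and those that fell included all 3 MGST genes, 4 of 10 GST genes and 4 of 15 ALDH genes. As a share, 21.0% of members fell against 11.5% of all rows, and 6.17% rose against 8.51% of all rows. Of the 14232 genes with a row of 1 symbol, taken in the same way as the members, 14.2% fell and 9.55% rose. The median change of the members was 0.02, and that of all rows was 0.0047. The values of the groups did not overlap for 14 members lower after paraquat, against 9.22% of all rows, and for 4 higher, against 7.01% of all rows.

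**Figure D1:**
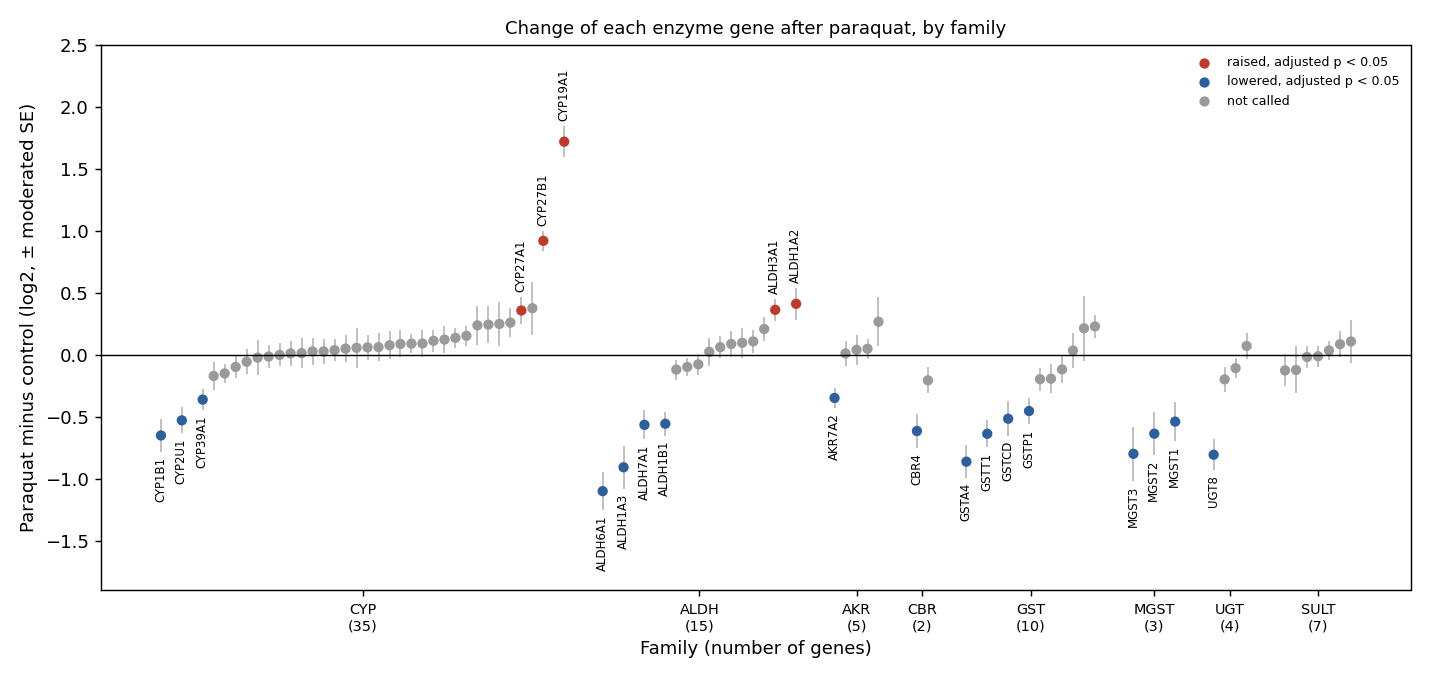
Paraquat minus control (log2, vertical axis, bars are moderated standard errors) for each of the 81 genes, ordered within 8 families; red and blue points are called raised or lowered, and grey points are not called. The 3 MGST genes all lie between -0.80 and -0.54, whereas most CYP genes lie near 0 and CYP19A1 stands highest at 1.72.

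The members that fell were mostly those with bright rows. Of the 24 members above the median of all rows (6.87), 12 fell and 0 rose (0 also at an unadjusted p under 0.05 in limma), where 16.8% of all such rows fell and 10.9% rose. Of the 57 members at or below that median, 5 fell and 5 rose, where 6.11% and 6.08% of such rows did. Among the dimmest rows, those with means up to 4.18, lay 22 members, including 12 of 35 CYP and 4 of 7 SULT genes. The table has no detection calls, so a row in that range may hold little but background, and the array summary shrinks changes there. The brightness of a row depends on its probes and does not rank genes by abundance.

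**Figure D2:**
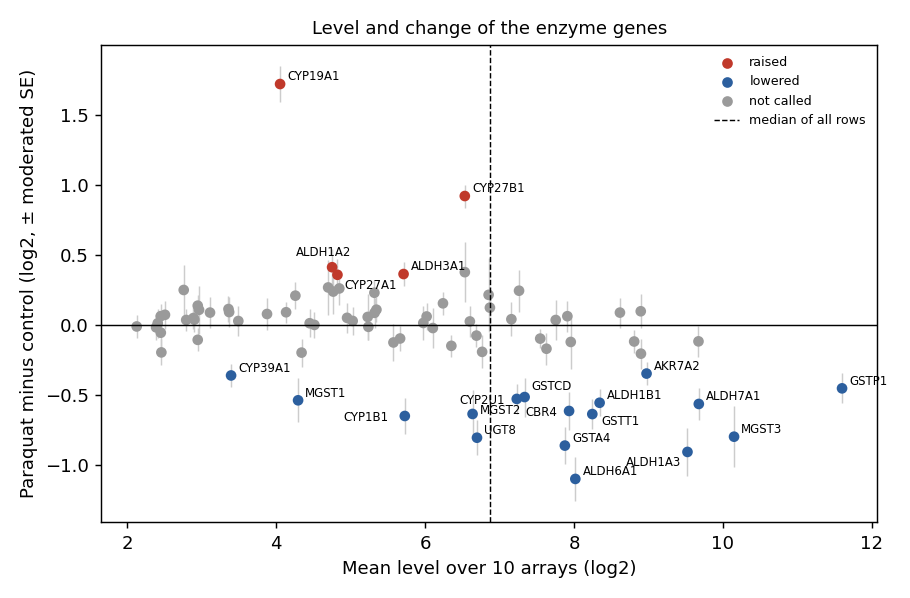
Mean level over the 10 arrays (log2, horizontal axis) against paraquat minus control (log2, vertical axis, bars are moderated standard errors) for the 81 genes. To the right of the dashed line at 6.87, the median of all rows, 12 genes are lowered and 0 raised; the 5 raised genes all lie to its left.

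Among the P450 genes, 3 of 35 rose and 3 fell, 8.57% in each direction, where 8.51% of all rows rose and 11.5% fell. Their median change was 0.06. The largest change of all members was in CYP19A1, the aromatase that converts androgens to oestrogens. In control arrays 7, 11, 13, 17 and 19 it measured 3.14, 3.33, 3.26, 3.11 and 3.14, and in paraquat arrays 8, 12, 14, 18 and 20 it measured 4.82, 4.86, 5.32, 4.58 and 4.99. Every paraquat array lay more than 1 log2 unit above every control array. The change was 1.72 ± 0.13 (log2 ± SE, limma adjusted p = 6.09e-06), or 3.29-fold. Its control mean of 3.19 lies among the dimmest rows, so the starting level, and with it the fold, is uncertain, although the paraquat arrays lay above that range. CYP11A1 and CYP17A1, which act earlier in steroid synthesis, had changes of 0.03 and 0.01 that were not called.

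Aromatase is known to be read from several tissue-specific starts, and RefSeq lists 7 for CYP19A1 (GRCh38.p14). The array summary does not say which was used. The 250 bases before each start were searched on both strands for TGANTCA, the site of AP-1, the dimer of FOS and JUN proteins. It was present before 2 of the 7 starts, before 3 of 91 starts of members (3.30%) and before 6.57% of all 35116 starts. The matches are shown because CYP19A1 moved most, on the minus strand at chr15:51288383-51288429 and chr15:51243938-51243984, with the site in capitals; a match describes letters only.
CYP19A1 first of these starts: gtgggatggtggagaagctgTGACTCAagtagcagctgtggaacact
CYP19A1 second of these starts: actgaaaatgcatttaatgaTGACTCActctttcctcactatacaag

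CYP27B1, the enzyme that makes the active form of vitamin D, rose 1.89-fold. Its controls measured 6.06, 6.11, 6.06, 5.98 and 6.17, and its paraquat arrays 6.85, 7.15, 7.01, 7.04 and 6.91. The groups were separated by more than their own ranges, and the change was 0.92 ± 0.08 (limma adjusted p = 2.30e-05). CYP2R1, which performs the preceding step in liver, had a change of 0.06, and its second row one of -0.0022. CYP24A1, which breaks down active vitamin D, stayed among the dimmest rows with means of 2.88 and 2.92. Thus 1 of these 3 P450 genes rose.

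CYP27A1, a mitochondrial sterol 27-hydroxylase, rose from 4.65 ± 0.13 to 5.0 ± 0.20 (mean ± SD, n = 5 each). Arrays of the groups overlapped, and the call (limma adjusted p = 0.0415) ended when any of controls 11, 13, 17 and 19 or paraquat 8, 12, 18 and 20 was left out, with adjusted p of 0.0521 to 0.105. CYP39A1, an oxysterol 7-alpha-hydroxylase, fell from 3.58 ± 0.13 to 3.21 ± 0.07, among the dimmest rows. The brain cholesterol 24-hydroxylase CYP46A1 (-0.01) and the oxysterol hydroxylase CYP7B1 (0.12) were not called.

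CYP1B1, which oxidises oestrogens and polycyclic aromatic compounds and is a classical AHR target, fell. Controls measured 6.26, 5.81, 6.26, 6.09 and 5.84, and paraquat arrays 5.72, 5.44, 5.27, 5.41 and 5.17. Paraquat 8 came within 0.1 of control 11, but no array overlapped. The change was -0.65 ± 0.13 (limma adjusted p = 0.00466). CYP2U1, a fatty acid hydroxylase, fell from 7.50 ± 0.14 to 6.97 ± 0.17, a change of -0.53 ± 0.10 (limma adjusted p = 0.00448), and was the only one called of 8 measured fatty acid P450 genes. None of 5 measured drug-metabolising P450 genes (CYP2E1, CYP2F1, CYP3A4, CYP3A5 and CYP3A43) was called by limma, with 1 at an unadjusted p under 0.05. CYP2E1 changed by 0.26 and CYP2F1 by 0.38. With array weights both were called raised, CYP2E1 at 0.32 (limma adjusted p = 0.046) and CYP2F1 at 0.52 (limma adjusted p = 0.0352). CYP2F1 was also called without paraquat 14 (0.56, limma adjusted p = 0.0297).

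**Figure D3:**
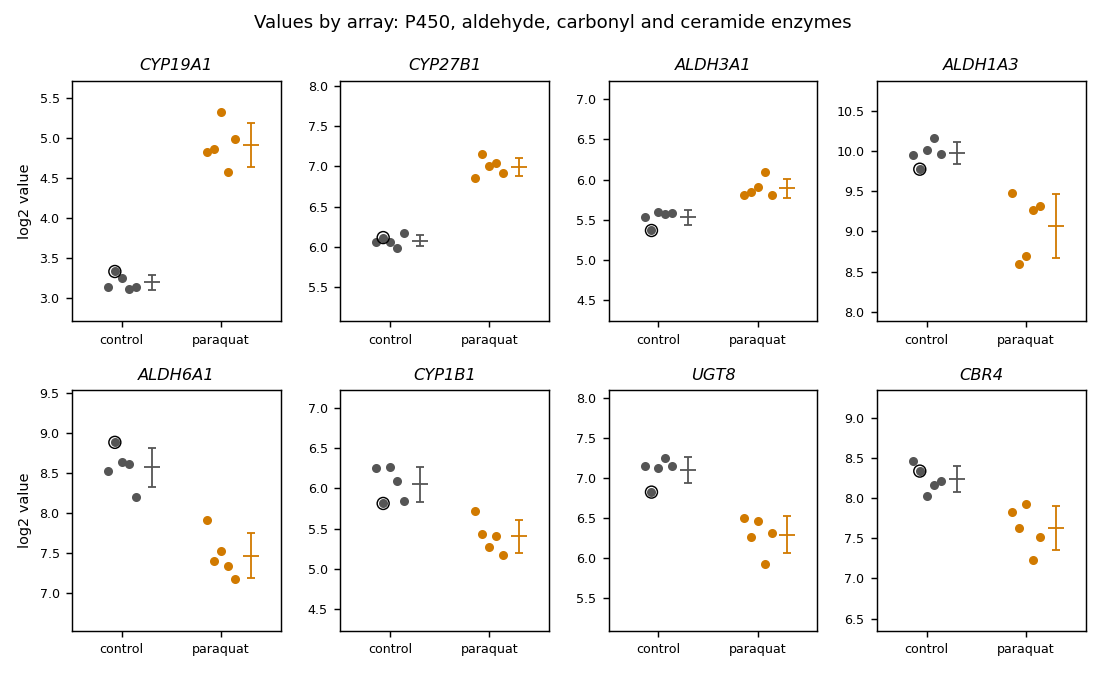
Log2 value of each array (points; horizontal axis, group) for 8 genes, with the mean and SD of 5 arrays beside each group; every panel spans the same 3 log2 units, and the circled point is control 11. CYP19A1, CYP27B1 and ALDH3A1 lie higher in all paraquat arrays than in any control, and the other 5 lie lower.

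In the ALDH family 4 of 15 genes fell (26.7%) and 2 rose (13.3%), where 11.5% of all rows fell and 8.51% rose. Above the median row, where 8 of the 15 lay, 16.8% of all rows fell and 10.9% rose. The median change of the ALDH genes was 0.02. The largest decrease was in ALDH6A1, the mitochondrial enzyme of valine and thymine breakdown that oxidises methylmalonate semialdehyde. Controls measured 8.52, 8.88, 8.63, 8.61 and 8.20, and paraquat arrays 7.91, 7.40, 7.52, 7.33 and 7.18. The lowest control, array 19, lay above the highest paraquat array, 8. The change was -1.10 ± 0.15, a 2.14-fold decrease (limma adjusted p = 0.000505). ALDH7A1, which acts in lysine breakdown and also oxidises lipid aldehydes, fell by 0.57 on the log2 scale, from 9.96 ± 0.25 to 9.39 ± 0.08 (limma adjusted p = 0.00547). Control 11 was its highest array at 10.32, and without it the change was -0.47 (limma adjusted p = 0.00496). ALDH9A1 (0.10) and ALDH5A1 (-0.08), which handle aminoaldehydes and succinic semialdehyde from GABA, were not called.

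ALDH1B1, a mitochondrial enzyme close to ALDH2, fell from 8.62 ± 0.13 to 8.07 ± 0.14 (-0.56 ± 0.10, limma adjusted p = 0.00179). ALDH2, the main mitochondrial enzyme for acetaldehyde and lipid aldehydes, changed by -0.12 ± 0.08 and was not called. ALDH3A1, which oxidises lipid aldehydes and is listed among targets of both NRF2 and AHR, rose. Controls measured 5.54, 5.36, 5.59, 5.57 and 5.58, and paraquat arrays 5.81, 5.85, 5.91, 6.09 and 5.80. Control 11 was the lowest control, apart from the others, and the groups did not overlap with or without it. The change was 0.36 ± 0.09 (limma adjusted p = 0.0122), or 0.32 without control 11 (limma adjusted p = 0.0218). ALDH3A2, the fatty aldehyde dehydrogenase of the endoplasmic reticulum, changed by 0.09, and ALDH3B1 by 0.02, neither called.

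Of the 7 genes that make or clear retinoic acid, 1 fell and 1 rose (14.3% each, against 11.5% and 8.51% of all rows). ALDH1A3, which makes retinoic acid from retinaldehyde, fell by 0.91 on the log2 scale, or 1.88-fold. Its controls measured 9.96, 9.78, 10.02, 10.17 and 9.97, and its paraquat arrays 9.47, 8.59, 8.70, 9.26 and 9.32. The paraquat arrays spread more widely, with 12 and 14 lowest, and stayed below every control (limma adjusted p = 0.00343). ALDH1A2, the related embryonic enzyme, rose from 4.55 ± 0.13 to 4.96 ± 0.26 (limma adjusted p = 0.0454). That call ended when any of controls 7, 11, 13 and 19 or paraquat 8, 18 and 20 was left out, with adjusted p of 0.0674 to 0.106. ALDH1A1 was among the dimmest rows (2.42 and 2.48). The clearing hydroxylases CYP26A1 (0.09), CYP26B1 (-0.02) and CYP26C1 (0.01) were not called, and for the last 2 the sign changed with the arrays or the scaling used.

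Genes that handle retinoids outside these families were counted from a list of 20, of which 17 had a row. In that list 4 fell (23.5%) and 2 rose (11.8%), at a median change of -0.03. Among all rows 11.5% fell and 8.51% rose. Above the median row, where 12 of the 17 lay, 16.8% of all rows fell and 10.9% rose. RDH10, the retinol dehydrogenase that supplies retinaldehyde, rose 4.57-fold, from control values of 6.96, 7.30, 7.36, 6.80 and 6.83 to 8.88, 9.88, 10.02, 8.68 and 8.77. Paraquat arrays 12 and 14, the lowest in ALDH1A3, were the highest in RDH10. The retinoic acid receptor RARG fell from 8.67 ± 0.21 to 7.38 ± 0.25 (-1.29 ± 0.14, limma adjusted p = 8.47e-05). CRABP2, which carries retinoic acid to its receptors, fell by 0.94 on the log2 scale, with overlapping arrays (limma adjusted p = 0.0119). The retinol uptake receptor STRA6 rose by 0.74 ± 0.13 (limma adjusted p = 0.0017). DHRS3 changed by 0.28 (limma adjusted p = 0.0511), and was called raised without control 11 (0.31, limma adjusted p = 0.0362).

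**Figure D4:**
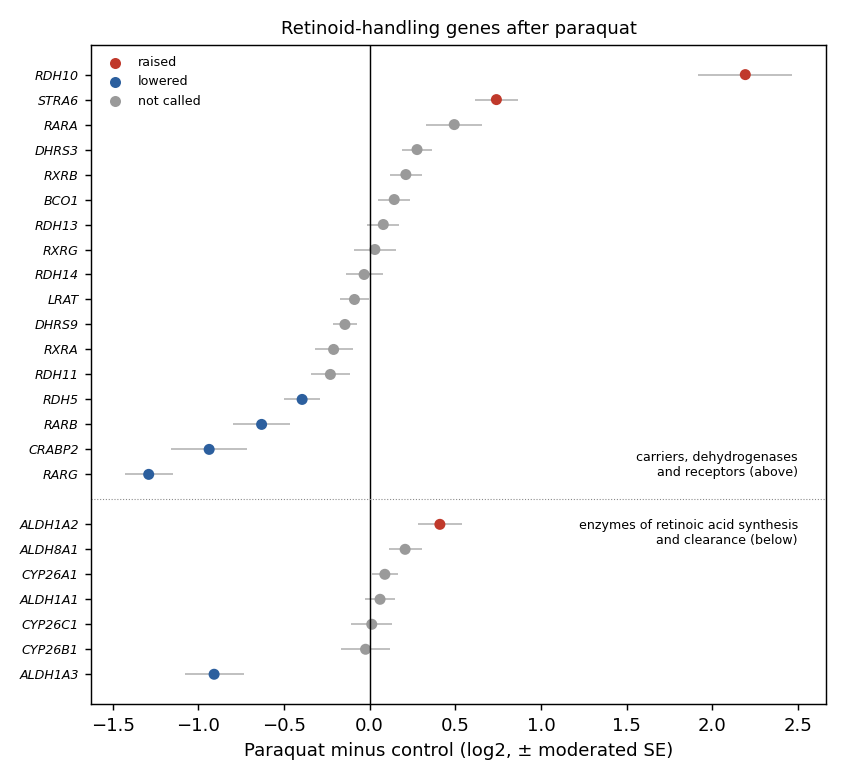
Paraquat minus control (log2, horizontal axis, bars are moderated standard errors) for 7 enzymes of retinoic acid synthesis and clearance (lower block) and 17 measured partner genes (upper block). RDH10 stands highest at 2.19 and RARG lowest at -1.29, while ALDH1A3 is the only lowered gene of the lower block.

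Of 5 AKR genes 1 fell and 0 rose in limma (0 also at an unadjusted p under 0.05), at a median change of 0.04. AKR7A2, which reduces succinic semialdehyde and aflatoxin dialdehyde, measured 9.0, 9.21, 9.18, 9.10 and 9.25 in controls and 8.79, 8.80, 8.69, 8.81 and 8.91 after paraquat. The difference was small but the arrays did not overlap (-0.35 ± 0.08, limma adjusted p = 0.0098). AKR1C3, a hydroxysteroid dehydrogenase that is an NRF2 target, measured 4.46, 5.35, 4.36, 4.38 and 4.28 in controls and 4.79, 4.78, 5.07, 4.99 and 4.52 after paraquat. Control 11 lay above all other arrays of the gene. With it the change was 0.27 (limma adjusted p = 0.422), and without it 0.46 (limma adjusted p = 0.0165). AKR1E2 changed by 0.04, and AKR1D1 and the pseudogene AKR1C6P lay among the dimmest rows.

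Both CBR genes reduce carbonyls with NADPH. CBR4, a mitochondrial reductase of quinones and of fatty acid synthesis, fell from 8.24 ± 0.17 to 7.63 ± 0.27 (-0.62 ± 0.14, limma adjusted p = 0.00855). Its controls measured 8.46, 8.34, 8.03, 8.17 and 8.21, and its paraquat arrays 7.83, 7.63, 7.93, 7.23 and 7.51, without overlap. CBR1, the abundant cytosolic reductase, went from 9.0 ± 0.22 to 8.80 ± 0.04, a change of -0.21 that was not called (limma adjusted p = 0.221), nor was that of -0.13 without control 11 (limma adjusted p = 0.377). Neither gene rose.

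Of the glutathione transferases, 4 of 10 GST genes (40.0%) and 3 of 3 MGST genes were called lowered, and 6 GST genes were not called. Among all rows 11.5% fell, and 16.8% of those above the median row. At an adjusted p under 0.01, and also with a minimum fold of 1.2, 2 GST and 0 MGST genes were lowered. In the main fit 0 rose, with 1 gene higher at an unadjusted p under 0.05 in limma, GSTO2. GSTO2 was called raised without paraquat 14 (0.28, limma adjusted p = 0.0436) and with array weights (0.25, limma adjusted p = 0.0311). The median change was -0.20 for GST and -0.64 for MGST genes. GSTP1, the main cytosolic transferase of many tumour lines, measured 11.56, 12.13, 11.80, 11.89 and 11.75 in controls and 11.23, 11.47, 11.34, 11.40 and 11.42 after paraquat. Control 7 was the lowest control and still exceeded the highest paraquat array, 12. The change was -0.45 ± 0.11 (limma adjusted p = 0.0118), or -0.38 without control 11 (limma adjusted p = 0.015).

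GSTA4, the alpha-class enzyme with high activity towards 4-hydroxynonenal, a product of lipid peroxidation, fell most of the family. Controls measured 8.19, 8.81, 8.18, 8.15 and 8.22, and paraquat arrays 7.42, 7.57, 7.56, 7.33 and 7.35. Control 11 was high, and the other 4 controls lay within 0.1 of each other. The change was -0.86 ± 0.13, a 1.82-fold decrease (limma adjusted p = 0.000879), and -0.74 without control 11 (limma adjusted p = 0.000192). GSTT1, of the theta class that acts on halogenated compounds, fell from 8.56 ± 0.20 to 7.93 ± 0.13 (-0.64 ± 0.11, limma adjusted p = 0.00184). A row that GSTT1 shares with GSTT4 and GSTTP2, not counted here, changed by 0.09 and was not called (limma adjusted p = 0.885). GSTCD, which has a GST-like C-terminal domain and no established conjugating role, fell from 7.60 ± 0.13 to 7.08 ± 0.30 (limma adjusted p = 0.0224). Its call ended without control 7 or 17 or without paraquat 12, 18 or 20, with adjusted p of 0.0505 to 0.0605. GSTK1 (-0.12), GSTZ1 (-0.19), GSTM3 (0.03), GSTO1 (0.21) and GSTO2 (0.23) were not called, and GSTM5 lay among the dimmest rows.

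The MGST genes encode membrane proteins that conjugate glutathione or reduce lipid hydroperoxides, and MGST2 can also make leukotriene C4. MGST3 measured 10.21, 11.22, 10.12, 10.66 and 10.52 in controls and 9.45, 10.31, 9.74, 9.55 and 9.70 after paraquat. Control 11 and paraquat 12 were the highest array of each group, and paraquat 12 overlapped the controls. The change was -0.80 ± 0.22 (limma adjusted p = 0.0242), or -0.63 without control 11 (limma adjusted p = 0.0318). MGST2 measured 6.76, 7.59, 6.66, 6.92 and 6.85 in controls and 6.24, 6.67, 6.31, 6.14 and 6.24 after paraquat. Control 11 and paraquat 12 were again highest, and the change was -0.64 ± 0.17 (limma adjusted p = 0.0227), or -0.48 without control 11 (limma adjusted p = 0.0144). MGST1 went from 4.57 ± 0.28 to 4.03 ± 0.25 (limma adjusted p = 0.032), a dim row. Calls ended when 1 array was left out: for MGST1 any of controls 11, 13, 17 and 19 or paraquat 8, 18 and 20, for MGST2 paraquat 18 or 20, and for MGST3 control 17 or paraquat 8, 18 or 20, with adjusted p of 0.0554 to 0.0803. All 3 changes were negative with any 1 array left out. The arrays did not overlap in 4 of the 4 lowered GST genes and in 0 of the 3 MGST genes.

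**Figure D5:**
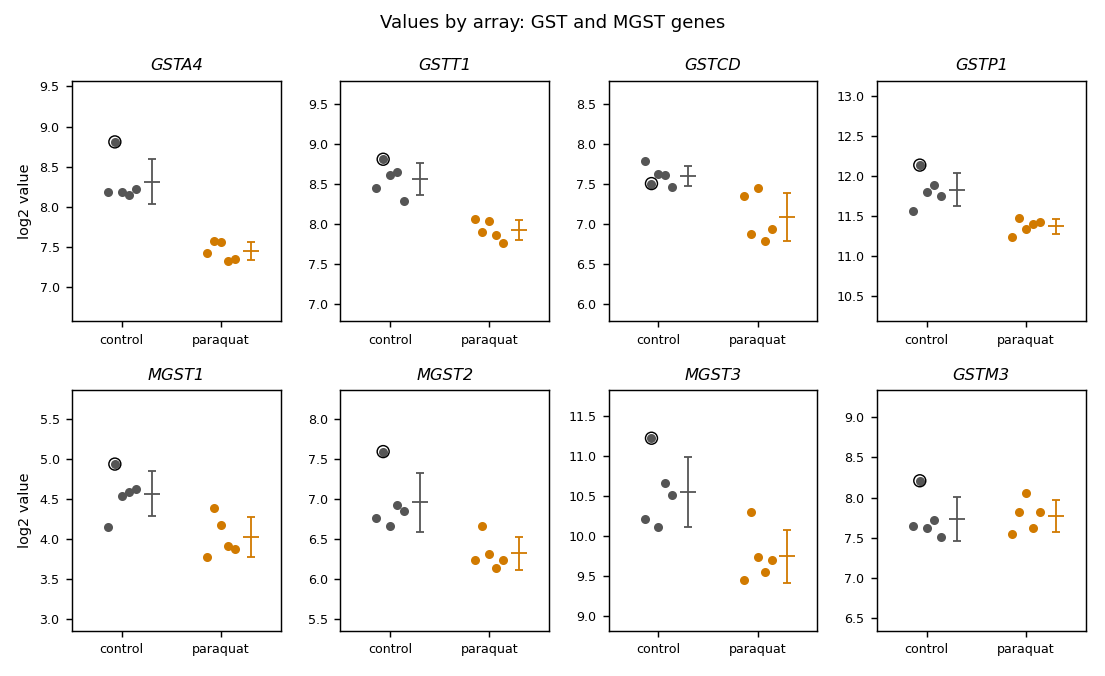
Log2 value of each array (points; horizontal axis, group) for 7 lowered GST and MGST genes and for GSTM3, with the mean and SD of 5 arrays beside each group; every panel spans 3 log2 units and the circled point is control 11. GSTA4, GSTT1, GSTCD and GSTP1 are separated between groups, the MGST genes overlap, and GSTM3 does not differ beyond its spread.

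The antioxidant response element, which NRF2 binds, has the core TGACNNNGC, and it was searched on both strands in the 250 bases before RefSeq starts (GRCh38.p14). It was present before 10 of 91 starts of members (11.0%) and 10.9% of all starts. Of the 17 called members with a start in the table it was before 3, AKR7A2, GSTA4 and GSTP1. The called members ALDH3A1, CYP1B1, CYP27B1, GSTT1 and MGST2 were not searched. Matches of AKR7A2, GSTA4 and GSTP1 are shown because these are the called members, of those searched, with the letters. The core is in capitals. The GSTP1 match, at chr11:67583726-67583774 on the plus strand, also holds an AP-1 site. Those of GSTA4, at chr6:52995285-52995313, and of AKR7A2, at chr1:19312213-19312261 and 1 of 3 before that gene, are on the minus strand.
GSTP1: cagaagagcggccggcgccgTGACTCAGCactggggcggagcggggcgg
GSTA4: tctcacccagccgggaccgcTGACCTGGC
AKR7A2: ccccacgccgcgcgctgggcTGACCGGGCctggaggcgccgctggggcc
The core of the xenobiotic response element of AHR, GCGTG, was before 27 of 91 starts of members (29.7%) and 32.2% of all starts. For both elements the share among members was close to that among all starts, and no test was made.

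UGT and SULT genes were mostly dim. UGT8, which makes galactosylceramide, a myelin lipid, and is no detoxifying enzyme, was the 1 of 4 UGT genes that fell. Controls measured 7.15, 6.83, 7.13, 7.25 and 7.15, and paraquat arrays 6.5, 6.26, 6.47, 5.93 and 6.31. Control 11 was the lowest control and lay above every paraquat array, and the change was -0.81 ± 0.12 (limma adjusted p = 0.000923), or -0.88 without control 11 (limma adjusted p = 0.000579). UGT2A3, UGT3A1 and UGT3A2 had control means of 2.47 to 4.44 and changes of -0.20 to 0.07, none called. Of 7 SULT genes 0 were called by limma, and 0 at an unadjusted p under 0.05. SULT1C4, the brightest of them, measured 8.15, 7.88, 7.96, 8.10 and 7.99 in controls and 7.97, 7.13, 8.20, 7.88 and 8.29 after paraquat, where array 12 was low. SULT2B1, a cholesterol sulfotransferase, changed by -0.13, and SULT4A1, a brain member, by 0.08.

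Across families, 7 of 16 textbook NRF2 targets among these enzymes had a row with 1 symbol. Of these ALDH3A1 rose (14.3%), GSTA4, GSTP1 and MGST1 fell (42.9%), and AKR1C3, CBR1 and GSTM3 were not called. Among all rows 8.51% rose and 11.5% fell. Above the median row, where 4 of the 7 lay, 10.9% of all rows rose and 16.8% fell. The median change of the 7 targets was -0.21. Without control 11, AKR1C3 was called raised (0.46, limma adjusted p = 0.0165) and MGST1 was not called (limma adjusted p = 0.0574). The other 9 targets had no such row, but some lay in the shared rows described below. A row of AKR1C1, AKR1C2 and AKR1C3 changed by 1.19 (limma adjusted p = 0.0506), and a dim row of AKR1C2 and AKR1C1 by 0.18 (limma adjusted p = 0.635). The row with CBR3 rose by 0.52. The 3 lowered shared rows held GSTM1 or GSTM2, and no other shared row with a listed target was called. Of 4 measured AHR targets ALDH3A1 rose (25%), CYP1B1 fell (25%), and CYP1A1 (0.24) and CYP1A2 (0.05) were not called. CYP1A1 changed by 0.33 without control 11 (limma adjusted p = 0.162) and was called without both control 11 and paraquat 12 (0.42, limma adjusted p = 0.0482). AHR itself was among the dimmest rows, with means of 2.78 and 2.82, and NFE2L2, the gene of NRF2, had no row with 1 symbol. KEAP1, which holds NRF2 back, rose from 9.30 ± 0.17 to 9.85 ± 0.24 (limma adjusted p = 0.0103). Its part in the changes of NRF2 targets was not tested.

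The array probes of close relatives cannot always be told apart, and 39 further rows carried several symbols with at least 1 from these families. They were not counted as members. Of them 3 fell (7.69%) and 1 rose (2.56%), where 11.5% of all rows fell and 8.51% rose. All 3 that fell covered GSTM1, GSTM2, GSTM4 or GSTM5, mu-class transferases, with changes of -0.77 (limma adjusted p = 0.0178), -0.57 (limma adjusted p = 0.00701) and -0.44 (limma adjusted p = 0.0274). The last call ended without control 7, 11 or 13 or paraquat 8 or 20 (limma adjusted p = 0.0518 without control 11). The row of CBR3 and DOP1B rose by 0.52 (limma adjusted p = 0.0418), and by 0.66 without control 11 (limma adjusted p = 0.0019). That call ended without control 7, 13 or 17 or without any 1 of paraquat 8, 12, 14, 18 and 20. A row of AKR1C1, AKR1C2 and AKR1C3 measured 4.09, 5.33, 4.42, 3.93 and 3.18 in controls and 5.54, 5.26, 6.35, 4.83 and 4.91 after paraquat. It changed by 1.19 ± 0.38 and was not called (limma adjusted p = 0.0506). Without control 11, the highest control, it was called at 1.47 (limma adjusted p = 0.00931). Rows of AKR1C2 with AKR1C1 (0.18, limma adjusted p = 0.635) and of AKR1C4 with AKR1C3 (-0.045, limma adjusted p = 0.805) were not called. Both lay among the dimmest rows.

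Partner genes of these pathways came from lists of other genes. ABCC3, a pump that exports glucuronide and glutathione conjugates, rose 8.34-fold, from 6.12, 6.04, 6.25, 6.31 and 6.26 in controls to 9.15, 8.98, 9.18, 9.51 and 9.46 (limma adjusted p = 4.51e-08). Of 7 measured conjugate pumps, ABCC3 and the dim ABCC2 (0.44) rose (28.6%) and ABCC4 (-0.88) fell (14.3%). Among all rows 8.51% rose and 11.5% fell. ABCC1, the main exporter of glutathione conjugates, changed by 0.02. Of 7 electron partners of P450 enzymes 1 fell (14.3%). This was CYB5A, cytochrome b5, which went from 9.34 ± 0.56 to 8.14 ± 0.55, with overlapping arrays (limma adjusted p = 0.0167). CYB5R1 changed by 0.17 (limma adjusted p = 0.355), and was called raised without control 11 (0.28, limma adjusted p = 0.0295). The P450 reductase POR, which can also reduce paraquat, had a change of 0.38 (limma adjusted p = 0.103).

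The epoxide hydrolases moved apart. EPHX2, the soluble enzyme for fatty acid epoxides, fell from 7.07 ± 0.14 to 6.01 ± 0.10 (-1.06 ± 0.09, limma adjusted p = 1.68e-05). EPHX1, the microsomal enzyme for foreign epoxides, rose from 7.21 ± 0.07 to 7.73 ± 0.21 (limma adjusted p = 0.00465). Among 17 other measured functionalising enzymes, these included, 4 fell (23.5%) and 3 rose (17.6%), where 11.5% of all rows fell and 8.51% rose. Of the 3 that rose, CES2 (0.48, limma adjusted p = 0.0345) was not called without control 11 (0.41, limma adjusted p = 0.0638). The CES2 call also ended without control 7 or 17 or paraquat 14, 18 or 20. PTGR1 changed by 0.51 (limma adjusted p = 0.0906), and was called raised without control 11 (0.69, limma adjusted p = 0.00272). The cortisol-regenerating HSD11B1 rose by 0.95 (limma adjusted p = 0.0221), without control 11 by 1.2 (limma adjusted p = 0.000373), and its call ended without control 17 or 19 or paraquat 20. PTGR2, a prostaglandin reductase, fell by 0.77 on the log2 scale. In donor supply for glucuronidation and sulfation, the transporter SLC35D1 rose (0.66) and the phosphatase BPNT1 fell (-0.58), of 8 measured (12.5% each). Of 11 genes that process glutathione conjugates, KYAT1 fell (-0.59) and GGT7 rose (0.28), 9.09% in each direction. The GGT7 call ended without control 7 or 19 or paraquat 8, 18 or 20. GGT5 changed by -0.40 (limma adjusted p = 0.0892), and was called lowered without control 11 (-0.53, limma adjusted p = 0.00858). Of 6 methyl- and acetyltransferases 0 were called by limma, and 0 at an unadjusted p under 0.05. HNMT, among the dimmest rows, changed by 0.28 (limma adjusted p = 0.27). It was called raised without control 11 (0.40, limma adjusted p = 0.0414) and with array weights.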

How the data were processed

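Gene expression was measured on exon arrays, Affymetrix GeneChip Exon 1.0 ST per the labels' protocols, in 5 control and 5 paraquat samples. The deposited log2 values were made by the authors with RMA, per the submitters' processing notes, which subtracts background, equalises array distributions and summarises probes. Software version, filters and genome build are not given in any source used here, and RMA shrinks changes of dim rows. The log2 scale was inferred from the values, which fit no linear intensity. Genes were named from the platform annotation, and 81 of 81 members matched RefSeq (GRCh38.p14) by gene identifier.

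Paraquat was compared with control in limma 3.58.1 (R 4.3.3) on the deposited values, with lmFit and eBayes, no covariate, no filter, two-sided, and Benjamini-Hochberg adjustment over 22011 rows. Residual degrees of freedom were 8, plus 3.06 from moderation. Each change carries its moderated standard error, and each mean the SD over 5 arrays. The median standard error of members was 0.11, and 5 arrays per group limit the precision. The fit was tested on simulated data. Members and gene lists were chosen with earlier results of these data known.

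Named were, per family, up to 4 called members with the largest change and the brightest member (the 2 largest changes where none was called), all measured retinoid, NRF2 and AHR members, and up to 3 called genes of each partner list. CYP27A1, CYP39A1, STRA6, EPHX1, AHR, POR and the uncalled members given in brief were added after their values were seen. So were CYB5R1, DHRS3, PTGR1, CES2, GGT5 and HNMT. Alternatives were median centring, quantile normalization, a filter on dim rows, an intensity trend, array weights, a minimum fold, a stricter threshold, averaged rows, left-out arrays and, added after seeing the data, a block of adjacent array numbers.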

Additional observations from a re-analysis of the deposited data

Results flagged for a closer look

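Control 11 was set apart from the other 4 controls by Dixon's test in 5 named members, of 35 checked, and chance flags about 1 in 20 groups. It was high in AKR1C3 (5.35 against 4.28 to 4.46), GSTA4 (8.81 against 8.15 to 8.22) and MGST2 (7.59 against 6.66 to 6.92), and low in ALDH3A1 (5.36 against 5.54 to 5.59) and UGT8 (6.83 against 7.13 to 7.25). No paraquat array was set apart in this way. Outside the members, the row shared by CBR3 and DOP1B was higher after paraquat by 0.52.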

How the results depend on the processing

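The 17 lowered and 5 raised members were the same genes after median centring, with an intensity trend and with averaged rows. The raised count was 3 after quantile normalization, 2 without the dim rows (42 members left, CYP19A1 not among them) and 8 with array weights. With a minimum fold of 1.2, 2 members rose and 5 fell (735 and 913 rows), and at an adjusted p under 0.01, 2 rose and 11 fell (1068 and 1424 rows). With 1 array left out, 3 to 7 members rose and 13 to 17 fell, and the counts of rows were 1480 to 2066 and 1916 to 2642. CYP19A1 (where tested), CYP27B1, ALDH1A3, ALDH6A1, GSTA4, GSTT1 and UGT8 passed in every setting. Only uncalled genes changed sign: CYP26B1 to 0.0246 after centring, CYP1A2 to -0.012 after quantile normalization, CYP26C1 to -0.0351 and CYP2R1 to -0.0231 with weights, and CYP26C1 to -0.0369 and SULT1C4 to 0.0334 without control 11 and paraquat 12. With 1 array left out, CYP26B1 ranged from -0.13 to 0.0581, CYP26C1 from -0.0654 to 0.0675, CYP1A2 from -0.0345 to 0.11, GSTM3 from -0.0365 to 0.15, CYP2R1 from -0.0169 to 0.12 and SULT1C4 from -0.22 to 0.0673. The cause of these sign changes was not tested. The groups share no replicate number, but each control is followed by a paraquat array with the next number, and no label says that these are pairs. Deviations from the group means correlated at 0.091 to 0.461 within those steps, and controls 13 and 19 correlated best with paraquat 18, outside theirs. With adjacent numbers as a replicate block, an alternative chosen after seeing the data, the same 5 members rose and 17 fell (2226 and 3153 rows). Of the uncalled results given above, POR, PTGR1 and the row of AKR1C1, AKR1C2 and AKR1C3 were called raised with that block, and GGT5 was called lowered. Brightness limits the 22 members with means up to 4.18.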
